A study of Mus musculus with 24 samples.

Results

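Tprkb, the gene for the TP53RK-binding subunit of the KEOPS complex, was followed with the rest of that complex in sorted mouse astrocytes of 4 brain regions. Tprkb had been selected on its measured decrease in forebrain libraries labelled knockout for NFIA, so its values in those regions are given as a description with no test. The list held 4 gene names, Tprkb, Tp53rk, Osgep and Lage3, and 3 of them had a row under that name in each of the 24 tables. Tp53rk is listed by RefSeq as a synonym of Trp53rkb, and the mouse annotation holds another copy, Trp53rka, so both copies were followed. The 5 resulting rows were described out of 24421 gene names, and all 5 were among the 12673 genes that passed the filter on low values (at least 20 normalised reads in at least 3 libraries). Tprkb and Osgep reached 20 in all 24 libraries, Trp53rka in 23, Lage3 in 18 and Trp53rkb in only 3. Gon7, a further KEOPS subunit, was not analysed here.

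The libraries were bulk RNA-seq of fluorescence-sorted astrocytes of C57BL6 mice aged 20 weeks. The regions were olfactory bulb, hippocampus, cortex (the forebrain regions) and brainstem, with 3 libraries per region and genotype. Controls were NFIAfl/fl; Aldh1l1-GFP, and the libraries labelled knockout were NFIAfl/fl; Aldh1l1-CreER; Aldh1l1-GFP. All 8 groups thus carried the floxed NFIA alleles and the astrocyte reporter, and the groups compared differed in the CreER transgene, which the Aldh1l1 promoter drives. An effect of CreER itself and of the loss of NFIA cannot be told apart in these groups, and the labels name no inducing agent, sex or number of animals. Replicates are not said to be separate animals, so p-values measure only the spread between these libraries, which may be technical.

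Depth ranged from 1090777 to 24297573 reads per library, and the shallowest was brainstem knockout 3. The targeted gene went against the labels: Nfia gave 3313 to 7458 normalised reads in the 12 controls and 7476 to 13320 in the 12 libraries labelled knockout, with the groups apart in every region (log2 fold changes 0.72 in cortex, 0.82 in olfactory bulb, 0.96 in hippocampus and 1.10 in brainstem). The Nfia difference passed limma's test in hippocampus and brainstem (Benjamini-Hochberg adjusted p = 0.00327 and 0.00246). It did not pass in olfactory bulb or cortex (adjusted p = 0.0674 and 0.0847). Of all tested genes, 7.19%, 9.76%, 7.23% and 5.41% were higher without overlap in olfactory bulb, hippocampus, cortex and brainstem. The Nfia values are counts over the whole gene, so they do not show whether a floxed part was lost. The libraries are called labelled knockout throughout. Astrocyte markers were abundant in every group, and all 10 were listed. Ribosomal precursor Rn45s took 20.8% of reads in olfactory bulb knockout 3, against 2.14% to 3.33% in the other 5 libraries of that region. It took 0.966% to 2.87% in hippocampus, 17.7% to 20.9% in cortex and 13.5% to 25.6% in brainstem.

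KEOPS is a conserved complex that completes N6-threonylcarbamoyladenosine (t6A), a modified base next to the anticodon of transfer RNAs that read codons starting with A, where it helps keep decoding accurate. Osgep (Kae1 in yeast) is the catalytic subunit, Tp53rk (Bud32) a kinase-like ATPase that Tprkb (Cgi121) binds, and Lage3 (Pcc1) links to Osgep at the other end. Yrdc makes the precursor that the complex transfers. Inherited defects of KEOPS genes cause Galloway-Mowat syndrome, in which the kidney and the brain are affected.

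In mm10 (GENCODE vM21), Tprkb (ENSMUSG00000054226.13) lies on the plus strand at chr6:85911865-85930284, with 10 merged exons of 5355 bases in all. Nat8f1, an N-acetyltransferase-like gene listed in the tables under its older name Cml1, lies on the minus strand at chr6:85910154-85915687. The genes overlap over 3823 bp, of which 478 bp are exonic in both. RefSeq gives Tprkb 3 promoter windows (250 bases before a start to 50 after, GRCm38.p6). The first sequence is the window whose Tprkb start, 85915719, faces the Nat8f1 start of GENCODE, 32 bp away, and is shown because both genes are described with it below. It is the plus strand, and capitals run from the Nat8f1 start to the Tprkb start.
Tprkb window at the start facing Nat8f1, chr6:85915469-85915768: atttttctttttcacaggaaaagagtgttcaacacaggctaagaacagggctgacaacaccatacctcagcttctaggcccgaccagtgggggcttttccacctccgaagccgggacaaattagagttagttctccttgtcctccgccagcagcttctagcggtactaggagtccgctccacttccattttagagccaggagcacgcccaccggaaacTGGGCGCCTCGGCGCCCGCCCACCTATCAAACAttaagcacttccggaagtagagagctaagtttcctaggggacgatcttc
The second window belongs to an upstream Tprkb start inside Nat8f1, again on the plus strand. It is shown because it alone of the 3 holds TTGGC or its reverse complement GCCAA, the short motif that nuclear factor I proteins such as NFIA recognise, and capitals mark that match.
Tprkb window at the upstream start, chr6:85911665-85911964: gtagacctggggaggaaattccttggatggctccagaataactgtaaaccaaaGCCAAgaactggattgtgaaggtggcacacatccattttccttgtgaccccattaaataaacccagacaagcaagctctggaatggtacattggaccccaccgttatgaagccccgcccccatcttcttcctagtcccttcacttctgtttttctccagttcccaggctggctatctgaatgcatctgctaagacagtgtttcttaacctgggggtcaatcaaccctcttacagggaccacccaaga
On either strand, this motif occurred in 46.71% of all 32851 RefSeq promoter windows of that length. It had 2 matches each in the windows of Trp53rka and Trp53rkb, 1 in that of Lage3 and 0 in that of Osgep. The paired form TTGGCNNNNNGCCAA, which contains the short one, was in 12 of all windows and in 0 of these. These are matches of letters only.

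In olfactory bulb, Tprkb was at 1355, 1961 and 1835 normalised reads in the controls and at 445, 579.96 and 632 in the libraries labelled knockout. All 3 of the latter lay below every control. Means were 1717 ± 320 (SD, n = 3) and 552.5 ± 96.3 (n = 3), a ratio of 3.11-fold, and the log2 fold change on the log2(value + 5) scale was -1.62 (SE 0.22). Without knockout 3 of that region, the library high in Rn45s, it was -1.73. In hippocampus the controls were at 1199, 2002 and 1700.2 and the libraries labelled knockout at 623, 995 and 965, again without overlap. The means of 1634 ± 406 and 861 ± 206.5 differed 1.90-fold (log2 fold change -0.92, SE 0.22). In cortex the controls were at 1005, 1209 and 1091, and the libraries labelled knockout at 459.7, 568 and 474. These groups did not overlap either, and the means of 1102 ± 103 and 500.4 ± 58.9 differed 2.20-fold (log2 fold change -1.13, SE 0.22). In bulk samples, fewer cells that express a gene and less RNA per cell cannot be told apart.

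Brainstem was the region that had not been used to choose Tprkb, and there its mean was higher in the libraries labelled knockout. The controls were at 714, 1254 and 908 and the libraries labelled knockout at 1381, 1066 and 965. The groups overlapped, with the highest value in a library labelled knockout and the lowest in a control. Means were 959 ± 274 and 1137 ± 217 (n = 3 each), and the log2 fold change was 0.27 (SE 0.22, 95% interval -0.17 to 0.71), which did not pass limma's test (Benjamini-Hochberg adjusted p = 0.599). In brainstem 0.773% of all tested genes passed. Without brainstem knockout 3, which had 168 Tprkb reads, the value was 0.38 (adjusted p = 0.526).

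**Figure D1:**
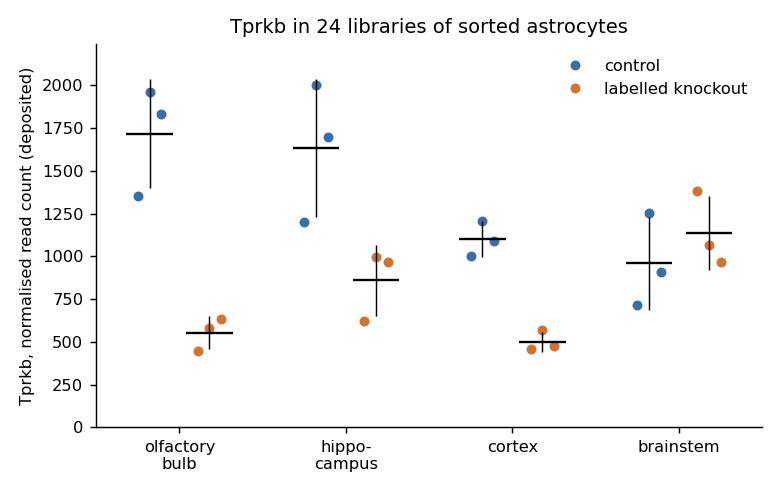
Deposited normalised read count of Tprkb in each of the 24 libraries by region, with controls in blue and libraries labelled knockout in orange; horizontal lines are means and vertical lines 1 SD (n = 3). The orange points lie below every blue point in olfactory bulb, hippocampus and cortex, and among them in brainstem.

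Single libraries labelled knockout, set against the control mean of their region on the log2 scale, stood at -1.92, -1.54 and -1.42 in olfactory bulb, -1.35, -0.68 and -0.73 in hippocampus, -1.25, -0.95 and -1.21 in cortex, and 0.56, 0.19 and 0.05 in brainstem. All 9 forebrain libraries were thus below their control mean and all 3 brainstem libraries above it. The difference of effects from brainstem was -1.89 for olfactory bulb, -1.19 for hippocampus and -1.40 for cortex (SE 0.30 each), given without a test because the forebrain effects chose the gene. Averaged over the 4 regions the effect was -0.85 (SE 0.11).

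Levels between regions were compared after rescaling all 24 libraries jointly, since the cortical tables had been normalised on a scale of their own. The order of the means was olfactory bulb control (1712 ± 319), hippocampus control (1627 ± 405), cortex control (1395 ± 133), brainstem labelled knockout (1133 ± 216), brainstem control (954 ± 273), hippocampus labelled knockout (857 ± 205.5), cortex labelled knockout (631 ± 74.0) and olfactory bulb labelled knockout (551 ± 95.5), with n = 3 in each. The ranges of every pair of neighbours in that order overlapped. The ends stood apart: the 3 olfactory bulb controls spanned 1350.0 to 1954 and the 3 olfactory bulb libraries labelled knockout 444 to 629. Among the controls alone, a region set against the other 3 gave a log2 difference of 0.41 in olfactory bulb, 0.29 in the hippocampus, 0.04 in cortex and -0.74 in brainstem (SE 0.18 each). Brainstem controls, at 710 to 1249, all lay below the cortical controls, at 1268 to 1533, but the hippocampal controls began at 1193. The regions with the lower Tprkb means among controls, cortex and brainstem, were also those where Rn45s took the larger share of reads (17.96% to 25.6% in their controls, against 0.966% to 2.93% in olfactory bulb and hippocampal controls). The part of this in the regional levels was not tested.

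Per kilobase of merged exon, Tprkb had more reads than its partners. Its mean level over the 12 controls was 265.5 joint-scale reads per kb, at the 95.0 percentile of 12650 genes. Trp53rka stood at 26.7, Osgep at 20.8, Lage3 at 17.0 and Trp53rkb at 2.14, so that the Tprkb level was 9.94, 12.8, 15.7 and 124 times theirs. Exon lengths come from all annotated isoforms, and which isoforms were present was not tested.

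The kinase-like partner of Tprkb was read from its copies Trp53rka (chr2:165490110-165493324, minus strand) and Trp53rkb (chr2:166792531-166799505, plus strand). They are near-identical in places: 35.57% of the stretches of 50 bases in Trp53rka also occur in Trp53rkb, so the split of reads between them is uncertain. Trp53rka stood at 50.9, 67.8 and 49.2 in olfactory bulb controls and at 38.7, 63.9 and 72.7 in the libraries labelled knockout, with overlap. In hippocampus it was at 26.8, 60.5 and 78.9 against 50.7, 89.8 and 33.6, also overlapping. In cortex it was at 40.3, 101 and 35.35 against 30.6, 22.97 and 35.32, so the groups met almost exactly, and the lack of overlap rests on the last 2 decimals of the lowest control and the highest library labelled knockout. In brainstem it was at 43.9, 18.3 and 60.4 against 37.4, 72.3 and 91.9. Its log2 fold changes were 0.03, 0.07, -0.76 and 0.70 in that order of regions (SE 0.45 each, adjusted p at least 0.482), and none passed limma's test.

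Trp53rkb was near the detection limit, with 3 to 97 reads in all but 1 of the 24 libraries and 0 in brainstem knockout 3. In brainstem it was at 13.9, 14.2 and 10.8 in controls and at 3.87, 4.82 and 0 in the libraries labelled knockout, which rest on 3, 3 and 0 reads. These groups did not overlap, but limma did not call the difference (log2 fold change -1.24, SE 0.51, adjusted p = 0.243), and it depends on the constant added at so few reads. It was -2.19 with a constant of 1 and -0.53 with a constant of 20. In hippocampus the order was the opposite, with 13.4, 9.31 and 13.4 in controls and 20.3, 40.2 and 13.5 in the libraries labelled knockout (log2 fold change 0.71, adjusted p = 0.612). There the groups nearly met, at 13.402 in the highest control and 13.499 in the lowest library labelled knockout. In olfactory bulb Trp53rkb was at 23.2, 9.69 and 1.64 against 18.35, 13.9 and 16.3, and in cortex at 7.72, 18.9 and 3.66 against 3.31, 4.59 and 5.05, with overlap in both. The copies summed, which does not depend on the split between them, overlapped in all 4 regions: means were 67.5 ± 14.5 against 74.6 ± 16.2 in olfactory bulb, 67.4 ± 26.2 against 82.7 ± 42.7 in hippocampus, 69.1 ± 44.5 against 34.0 ± 6.40 in cortex, and 53.8 ± 19.6 against 70.1 ± 26.1 in brainstem (n = 3 each).

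Osgep, the catalytic subunit (chr14:50906478-50924893, minus strand), overlapped between genotypes in every region. It was at 121, 139.7 and 126 in olfactory bulb controls against 156, 133 and 143, and at 79.7, 88.4 and 148 in hippocampal controls against 110.05, 104 and 93.3. In cortex it was at 82.3, 58.6 and 95.1 against 51.4, 68.9 and 51.9, and in brainstem at 61.0, 77.3 and 92.7 against 63.2, 78.8 and 28.7. The lowest of these, 28.7 in brainstem knockout 3, rests on 5 reads. Log2 fold changes were 0.16, 0.01, -0.41 and -0.49 (SE 0.30 each, adjusted p at least 0.457), with 95% intervals of -0.46 to 0.77 in olfactory bulb, -0.61 to 0.63 in hippocampus, -1.03 to 0.21 in cortex and -1.10 to 0.13 in brainstem. All 4 intervals include 0, and they leave room for a difference in either direction.

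Lage3 (chrX:74351276-74353618, minus strand), which joins Osgep at the other end of the complex, was at 34.3, 34.7 and 29.0 in olfactory bulb controls and at 60.1, 36.1 and 37.6 in the libraries labelled knockout. These groups did not overlap, with the libraries labelled knockout higher, but limma did not call the difference (log2 fold change 0.37, SE 0.41, adjusted p = 1). In hippocampus it was at 26.2, 14.9 and 49.5 against 36.1, 44.6 and 45.3. In cortex it was at 30.01, 16.9 and 11.0 against 12.4, 10.7 and 18.02, and in brainstem at 42.8, 65.1 and 43.1 against 24.5, 59.5 and 34.5. Log2 fold changes were 0.53, -0.32 and -0.37 (SE 0.41 each, adjusted p at least 0.641), and all 3 regions overlapped.

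**Figure D2:**
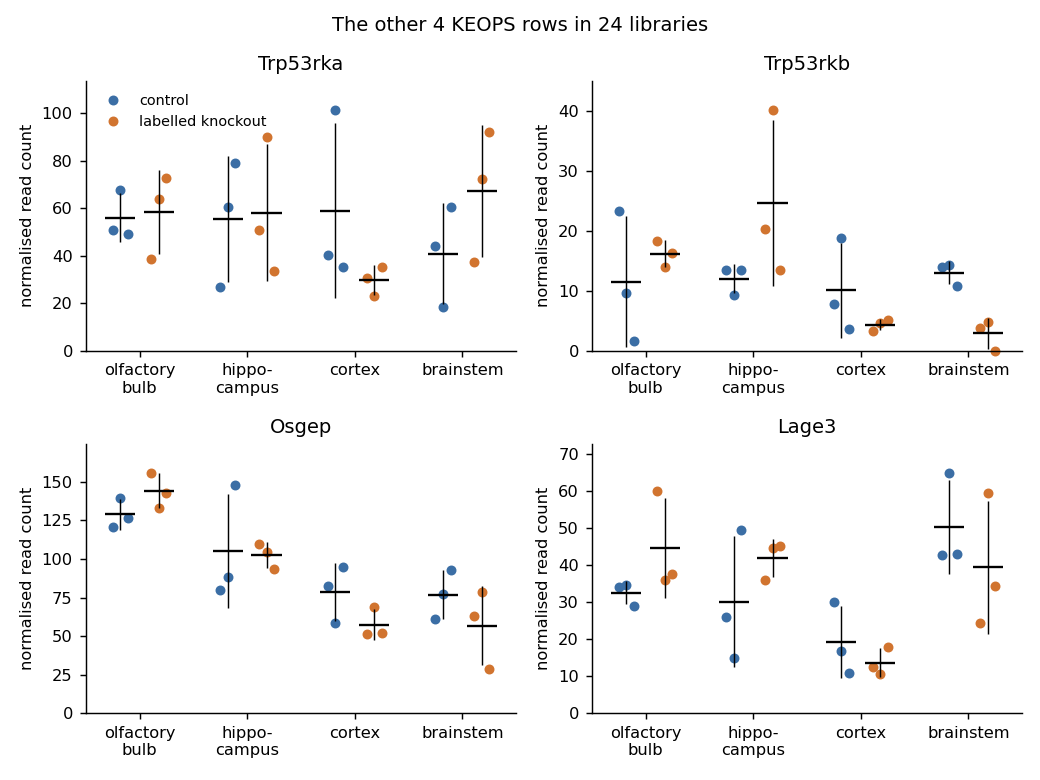
Deposited normalised read counts of Trp53rka, Trp53rkb, Osgep and Lage3 in the 24 libraries by region, with controls in blue and libraries labelled knockout in orange; horizontal lines are means and vertical lines 1 SD (n = 3), and the vertical scales differ. The genotypes overlap in most panels and regions, and the 3 lowest brainstem points of Trp53rkb rest on 3, 3 and 0 reads.

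None of these 4 rows passed limma's test in any region. Over all 12673 genes, 0.0868% passed in olfactory bulb, 2.51% in the hippocampus, 0.324% in cortex and 0.773% in brainstem. At an unadjusted p under 0.05, 1 of the 4 passed, Trp53rkb in brainstem. The edgeR tests with either set of factors, DESeq2 and limma-voom on the recovered reads called 0 of 4 in each region, also with 0 at an unadjusted p under 0.05. For the average of the 4 regions, where 5.88% of all genes passed, the log2 values were 0.01 for Trp53rka, -0.13 for Trp53rkb, -0.18 for Osgep and 0.05 for Lage3, and 0 of 4 passed (adjusted p at least 0.572, with 0 at an unadjusted p under 0.05).

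Counted by overlap alone, the libraries labelled knockout lay below every control in 1 of the 5 rows in olfactory bulb and in hippocampus (Tprkb), in 2 of 5 in cortex (Tprkb and Trp53rka) and in 1 of 5 in brainstem (Trp53rkb). They lay above every control in 1 of 5 in olfactory bulb (Lage3) and in hippocampus (Trp53rkb), and in 0 of 5 in cortex and brainstem. Of all tested genes, 6.86% were lower without overlap in olfactory bulb, 10.4% in the hippocampus, 7.21% in cortex and 5.65% in brainstem, and 7.19%, 9.76%, 7.23% and 5.41% were higher. Tprkb was 1 of 43 genes, or 0.339% of those tested, that were lower without overlap in all 3 forebrain regions. That count includes the contrasts on which it was chosen.

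**Figure D3:**
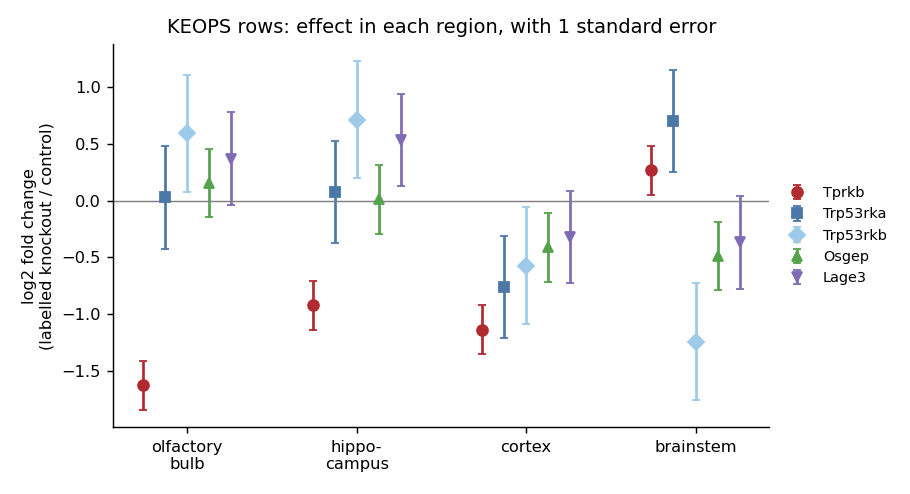
Log2 fold change on the log2(value + 5) scale, libraries labelled knockout over controls, of the 5 KEOPS rows in each region; bars are 1 standard error of the limma fit. Tprkb stands at -1.62, -0.92 and -1.13 in the forebrain regions and at 0.27 in brainstem, while the other rows lie on both sides of 0.

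The difference of the effect among regions, tested with limma's F test over the 3 differences from brainstem, did not pass for Trp53rka (adjusted p = 0.827), Trp53rkb (adjusted p = 0.618), Osgep (adjusted p = 0.912) or Lage3 (adjusted p = 0.886). Of all genes 0.0552% passed this test. Between control regions, compared in the same way, the largest values were 0.75 for Lage3 in brainstem (SE 0.34, adjusted p = 0.132), -0.57 for Trp53rka in brainstem (adjusted p = 0.329), -0.54 for Lage3 in cortex (adjusted p = 0.41), -0.49 for Osgep in brainstem (adjusted p = 0.185) and 0.48 for Osgep in olfactory bulb (adjusted p = 0.231). None of the 4 rows passed limma's test in any control region, where 14.2% of 12759 genes passed in olfactory bulb, 2.86% in the hippocampus, 6.83% in cortex and 17.6% in brainstem. At an unadjusted p under 0.05, 1 of the 4 passed, Lage3 in brainstem. The 4 count-based tests called 0 as well (edgeR with TMM factors, DESeq2 and limma-voom had at most 1 of 4 at an unadjusted p under 0.05 in a region, edgeR with RLE factors at most 2).

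Cml1 (Nat8f1), which shares the start region and 478 exonic bp with Tprkb on the other strand, had lower values in the same regions, though none passed the test. In olfactory bulb it was at 86.3, 425 and 270.2 in controls and at 84.6, 114 and 148 in the libraries labelled knockout. In hippocampus it was at 246, 259 and 658 against 195, 203 and 175, and in cortex at 225, 209.7 and 174 against 89.5, 104 and 79.3. The groups stood apart in hippocampus and cortex, where 10.4% and 7.21% of all tested genes were lower without overlap, and overlapped in olfactory bulb. In brainstem it was at 176, 213 and 134 against 251, 56.3 and 178, with overlap. Its log2 fold changes were -0.91, -0.85, -1.12 and -0.31 (SE 0.49 each; limma adjusted p = 1, 0.493, 0.831 and 0.828), and -0.80 for the average (adjusted p = 0.0628). The labels do not say whether counting used strand, and without strand reads from the shared exons cannot be told apart, so the Cml1 and Tprkb values are not fully separate measurements. By sequence, 7.41% of the stretches of 50 bases in Tprkb transcripts also occur in Nat8f1 on the opposite strand. The shared 478 bp are a larger part of Nat8f1, with 1345 exonic bp in all, than of Tprkb, with 5355. The part of shared reads in the Cml1 values was not tested. Across the 24 libraries Pearson's r of Cml1 with Tprkb was 0.66 and Spearman's rho 0.76 on the joint log2 scale. These libraries share regions, genotypes and depth, so this is a description only.

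**Figure D4:**
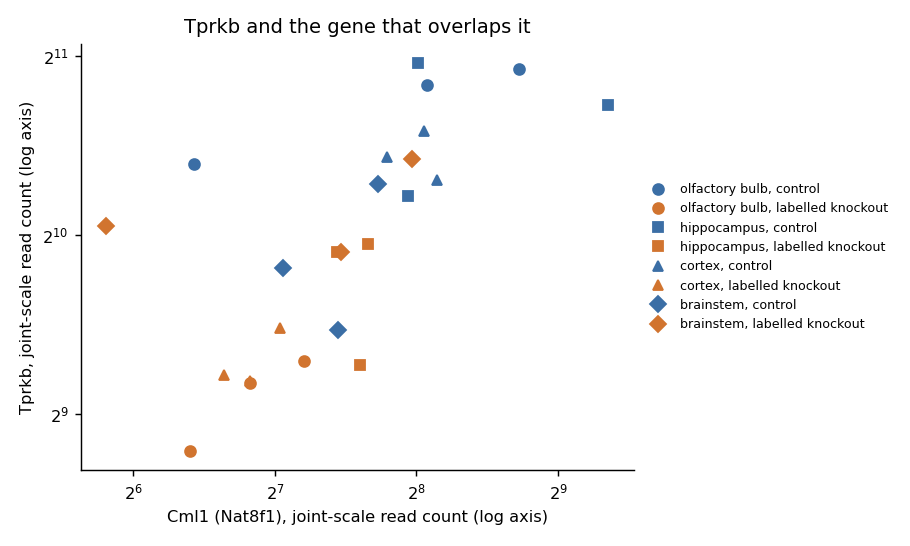
Joint-scale read count of Tprkb against that of Cml1 (Nat8f1), both on log2 axes, in the 24 libraries; shapes stand for regions and colours for genotype. In hippocampus and cortex the libraries labelled knockout lie toward the lower left of their controls. In olfactory bulb they lie lower than their controls but overlap them on the Cml1 axis. The brainstem libraries of both genotypes are mixed.

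Other genes next to Tprkb did not share its pattern in a form that passed the test. Nat8f4 (listed as 1700019G17Rik), 6981 bp before Tprkb, had log2 fold changes of 0.12, 0.27, -0.24 and 0.29, and Dusp11, an RNA phosphatase gene 11984 bp after it, -0.08, 0.37, 0.15 and 0.05. Add2, a spectrin-actin linker gene 98397 bp after it, stood at 0.14, 0.26, -0.44 and 0.68. Nat8f2 (Cml2) and Figla were below the filter. Within 1 Mb, 30 of 44 listed genes were tested, and 0 of 30 passed in olfactory bulb, cortex and brainstem, where 0.0868%, 0.324% and 0.773% of all genes did. In hippocampus, beside 2.51% of all genes, 2 of 30 passed, both lower: Anxa4, a calcium-dependent membrane-binding protein (-1.72, adjusted p = 0.0189), and Tgfa, a ligand of the EGF receptor (-1.25, adjusted p = 0.0366). They lie 806.6 and 264.9 kb away, and each call depended on which libraries were kept. The Anxa4 call was lost without hippocampal control 1, knockout 1 or knockout 2, with an adjusted p of up to 0.134. It was also lost in 1 of 11 other settings, without the filter on low values. The Tgfa call was lost without control 1, control 3, knockout 2 or knockout 3, with up to 0.261. It was also lost in 3 of 11 other settings: with replicate numbers as a block, without the filter and in limma-voom. Averaged over regions, where 5.88% of all genes passed, both of these passed (2 of 30; Anxa4 -1.02, adjusted p = 0.00247; Tgfa -0.74, adjusted p = 0.00611), and these calls were kept in all 24 fits that left out 1 library. The median log2 fold change of the 30 genes was 0.07, 0.06, -0.09 and 0.05 in the 4 regions, beside -0.01, 0.00, -0.00 and -0.01 for all tested genes. The Aldh1l1 gene itself lies 4.556 Mb from Tprkb on the same chromosome. Where the CreER transgene that its promoter drives is inserted is not given in the labels.

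**Figure D5:**
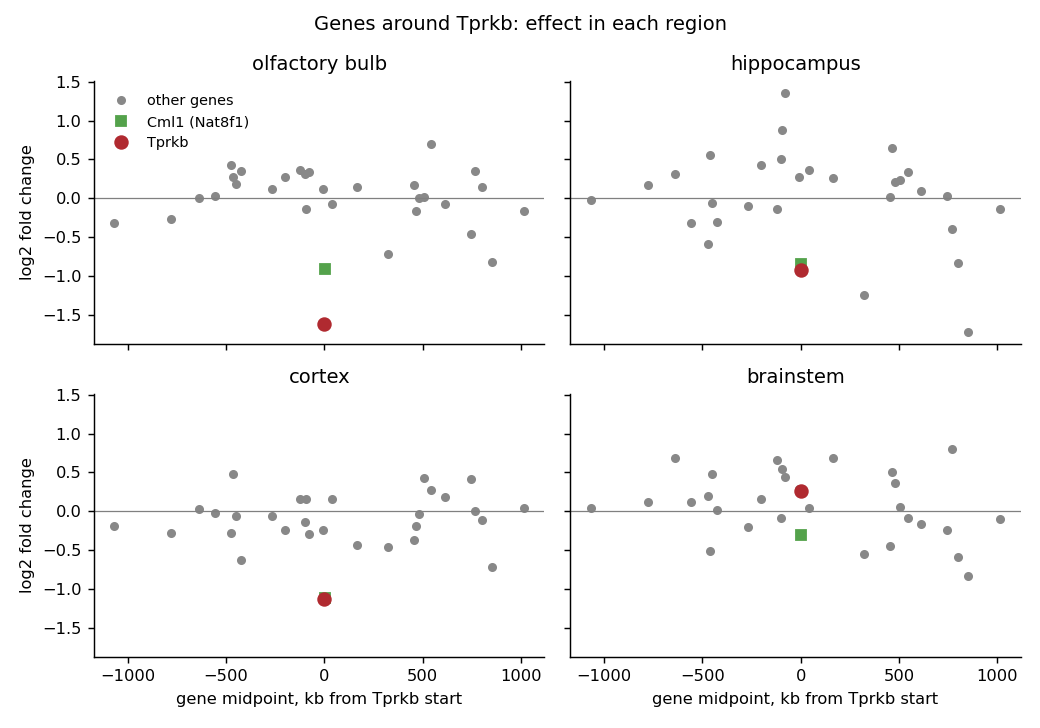
Log2 fold change (libraries labelled knockout over controls) of the 30 tested genes within 1 Mb of Tprkb against the distance of their midpoint from the Tprkb start in kb, with 1 panel per region; Tprkb is red and Cml1 green. In olfactory bulb and cortex these 2 are the lowest points, and in brainstem Tprkb is above 0.

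Beyond the complex, none of the 4 tested genes listed for making or further changing t6A passed the test. Of these, Cdk5rap1 was listed as a relative of Cdkal1 and does not itself act on t6A. Trmo, also on that list, had no row under that name. Yrdc, which makes the threonylcarbamoyl precursor, averaged -0.28 (adjusted p = 0.586) over the regions, Osgepl1, the mitochondrial counterpart of Osgep, 0.24 (adjusted p = 0.46), Cdkal1, which adds a methylthio group to t6A, 0.01 (adjusted p = 0.989), and Cdk5rap1, a related enzyme of mitochondrial tRNAs, 0.28 (adjusted p = 0.737). In single regions they ranged from -0.53 (Yrdc in cortex) to 0.86 (Cdk5rap1 in hippocampus). None of the 4 passed limma's test in any region, in the average or between control regions, 0 had an unadjusted p under 0.05, and 0 were called by the 4 count-based tests. Their median was 0.01 in olfactory bulb, 0.17 in the hippocampus, -0.09 in cortex and 0.05 in brainstem.

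Other tRNA genes gave 0 or 1 call per list in each region and in the average. The shares of all tested genes that passed (0.0868%, 2.51%, 0.324% and 0.773% in olfactory bulb, hippocampus, cortex and brainstem, 5.88% in the average) amount to few calls in lists of this size, so these counts do not set the lists apart from other genes. At an unadjusted p under 0.05 the shares of all genes were 5.2%, 13.6%, 5.7%, 15.2% and 18.8% in the same order. Of 7 tested enzymes that act next to the anticodon on other tRNAs, 0 passed in any region or the average (1 at an unadjusted p under 0.05 in olfactory bulb, cortex, brainstem and the average, 0 in hippocampus), and 0 by the count-based tests. Of 51 tested genes of other tRNA modifications, 0 passed in olfactory bulb, hippocampus or cortex, with 2, 4 and 1 at an unadjusted p under 0.05. In brainstem 1 fell, Trmt1l, a tRNA methyltransferase-like gene (-1.03, adjusted p = 0.0348), and DESeq2 called it too, while both edgeR fits and limma-voom did not. That call was also lost with replicate numbers as a block, with the brainstem libraries fitted alone, and without brainstem control 1, control 3, knockout 1 or knockout 3, with an adjusted p of up to 0.265. For the average 1 fell, Wdr6, a partner of the tRNA ribose methyltransferase Ftsj1 (-0.57, adjusted p = 0.0473), a call lost in 18 of 24 fits that left out 1 library (adjusted p of up to 0.109), with a constant of 1 and without the filter. Both edgeR fits and DESeq2 called Wdr6 for the average and Trmt1l with it, DESeq2 also called Mettl6, and limma-voom called 0. Medians of these 51 were 0.09, 0.11, -0.03 and -0.03 in the 4 regions.

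Aminoacyl-tRNA synthetases, which charge tRNAs, showed 0 calls with genotype by limma, both among the 8 for amino acids with codons that start with A and among the 16 others. With the shares of all genes given above, 0 calls in lists this short say little about these enzymes. In the first set 3 had an unadjusted p under 0.05 in olfactory bulb, 1 in brainstem and 3 in the average, and in the second 2 in hippocampus, 1 in brainstem and 1 in the average. For the average, DESeq2 called Tarsl2 in the first set, and DESeq2 and limma-voom called Eprs in the second. Of 21 tested genes of p53 and its targets, listed because Tp53rk is a p53-related kinase, 1 fell in hippocampus, Perp, a desmosomal protein gene (-2.94, adjusted p = 0.0171). That call was lost without control 1, control 3, knockout 1 or knockout 2, with an adjusted p of up to 0.105, and in the edgeR fit with TMM factors, and 1 of 21 stands beside 2.51% of all genes. In the other regions and the average 0 of 21 passed in limma (0, 1, 2 and 3 at an unadjusted p under 0.05 in olfactory bulb, cortex, brainstem and the average), and DESeq2 also called Mdm2 in hippocampus. For the average DESeq2 called Mdm2 and Perp, and limma-voom called Mdm2.

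Genes whose levels went most closely with Tprkb over the 24 libraries, by Pearson's r on the joint log2 scale, were Entpd2, an ectonucleotidase of astrocytes and progenitors (0.79), Gm2115 (0.75), Sap30l (0.75), Adamtsl3 (0.71), Tst (0.71), Padi2 (0.70), Naprt (0.70), Ntsr2, a neurotensin receptor of astrocytes (0.69), Nde1 (0.69) and Frrs1l (0.67). Their effects in olfactory bulb ranged from -2.18 (Adamtsl3) to -0.67 (Sap30l), and in brainstem from -0.71 (Adamtsl3) to 1.00 (Frrs1l), where none passed the test (adjusted p at least 0.124). The genes most opposite to Tprkb were the circadian repressor gene Ciart (-0.76), Rgs16 (-0.74), Spata6 (-0.73), the cell-cycle kinase gene Wee1 (-0.68) and Taf6 (-0.66). The other KEOPS rows were far from either end, with r of 0.19 for Trp53rka, -0.13 for Trp53rkb, 0.07 for Osgep and -0.14 for Lage3. These values describe 24 libraries that share the regions and genotypes from which Tprkb was chosen. The other KEOPS rows rest on fewer reads than Tprkb, and the part of that in their r was not tested.

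Summed levels of some cell type markers were lower in the libraries labelled knockout in some of the regions where Tprkb was lower. The summed level of 10 astrocyte markers was 281300 to 331400 in olfactory bulb controls and 267300 to 280300 in the libraries labelled knockout, lower without overlap, and 1 of 10 passed there, Gfap, an intermediate filament gene (log2 fold change -1.16, limma adjusted p = 0.0395). In hippocampus it was 303000 to 507300 against 446400 to 545500, in cortex 496200 to 681200 against 449700 to 553200, and in brainstem 107500 to 305800 against 233000 to 292500, with overlap in these 3 regions. In hippocampus 2 of 10 passed, Gfap lower (-1.70, adjusted p = 0.000171) and Aldh1l1, whose promoter drives the transgenes, higher (0.86, adjusted p = 0.0155). In cortex 0 of 10 passed, and in brainstem 1, the water channel gene Aqp4, higher (0.94, adjusted p = 0.0296). Among all tested genes the shares passing limma's test were 0.773% (brainstem), 0.324% (cortex), 2.51% (hippocampus) and 0.0868% (olfactory bulb). Aldh1l1 was also higher without overlap in cortex (0.49) and olfactory bulb (0.31), where it did not pass. Of all tested genes, 7.23% and 7.19% were higher without overlap there. The Aldh1l1 groups overlapped in brainstem (0.33). The 10 choroid plexus and ependymal markers summed to 72650 to 147000 in hippocampal controls and to 2228 to 6180 in the libraries labelled knockout, and 5 of 10 passed. In olfactory bulb, where the Tprkb difference was widest, the same markers summed to 103 to 174 against 79.9 to 120.0, with Folr1 and Tmem212 at 0 in all 6 libraries. They overlapped in cortex (1744 to 65430 against 379 to 8096) and in brainstem (51500 to 244100 against 4186 to 93100, Tmem212 at 0 in all 6). The sum of the 6 markers of oligodendrocyte precursors was lower without overlap in olfactory bulb (1603 to 1773 against 1060.0 to 1532) and cortex (940 to 1116 against 822.5 to 913), with 0 of 6 passing. Of all tested genes, taken singly, 6.86% were lower without overlap in olfactory bulb, 10.4% in hippocampus and 7.21% in cortex. Summed markers of microglia, oligodendrocytes, neurons, neuroblasts and vessels overlapped between genotypes in all 4 regions. The part of these markers in the Tprkb difference was not tested.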

How the data were processed

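Sorted astrocytes were profiled by RNA-seq from 5 ng of RNA per library. The submitters' processing notes name FastQC, STAR 2.5.0a, DESeq2 1.20.0 and mm10, without roles, and the counting tool, annotation and strand setting are not given in the sources used here. The deposited tables hold normalised signal for 24421 names. The authors' values were whole reads divided by 1 factor per library in 100.0% of cases (tolerance 0.01 read), so reads were recovered. The factors that divided the cortical reads were 1.26 to 1.27 times the joint factors over all libraries, so deposited cortical values were lower than joint ones. Regions were therefore compared on joint factors.

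The limma fit (version 3.58.1, R 4.3.3) used log2(value + 5), 8 group means, trend and robust moderation and 16 residual degrees of freedom, on genes at 20 or more in at least 3 libraries. Tests were two-sided, with Benjamini-Hochberg adjustment over all 12673 genes (12759 on the joint scale) and a threshold of 0.05. Alternatives were edgeR 4.0.16 and DESeq2 1.42.0 on recovered reads, limma-voom, other constants and filters, a replicate block, single regions and leaving out each library.

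The KEOPS members, gene lists and tests were chosen with earlier results of these data known. Named were all KEOPS rows, all genes of the t6A list, and up to 4 called members of each other list. Also named were the 3 nearest genes on each side of Tprkb and called genes within 1 Mb. The 10 genes most like and 5 most opposite to Tprkb were named as well. Calls near the other KEOPS genes and list calls between control regions are not described. Positions come from GENCODE vM21 and promoter windows from RefSeq (GRCm38.p6).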

Additional observations from a re-analysis of the deposited data

Results flagged for a closer look

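The Tprkb values lay on opposite sides of the control mean in brainstem and the forebrain. The brainstem effect itself (0.27, 95% interval -0.17 to 0.71) did not pass limma's test (adjusted p = 0.599) and its groups overlapped, so no direction is established there. The difference between regions was not tested because the forebrain effects had chosen the gene. Every olfactory bulb, hippocampal and cortical library labelled knockout lay below the control mean of its region, and every brainstem library labelled knockout lay above. The olfactory bulb effect minus the brainstem effect was -1.89 on the log2 scale. For hippocampus the difference from brainstem was -1.19, and for cortex it was -1.40.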

How the results depend on the processing

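Of 897 alternative values of the KEOPS effects, none changed a call: 0 of 728 tested alternatives passed the threshold, and the lowest adjusted p was 0.0701, for Lage3 in brainstem controls. A total of 78 values changed sign, each of a result that had not passed or was given without a test, and 4 of these were Tprkb in cortical controls. Leaving out 1 library gave Tprkb effects of -1.79 to -1.48 in olfactory bulb, -1.13 to -0.70 in hippocampus, -1.23 to -1.06 in cortex and 0.07 to 0.48 in brainstem. The other alternatives gave -1.64 to -1.58, -0.98 to -0.90, -1.15 to -1.11 and 0.25 to 0.34. With replicate numbers as a block the Tprkb effect in brainstem was 0.27 (limma adjusted p = 0.479), and no KEOPS call changed. Whether the numbers pair the libraries is not settled by 3 libraries per group. Correlations of deviations ran from -0.115 to 0.32 for same-numbered libraries and from -0.291 to 0.163 for differently numbered ones. Both the highest same-numbered and the lowest differently numbered value were in hippocampus. Of the 10 genes most like Tprkb, 3 kept their place among the 10 with region means subtracted and 7 with Spearman's rho. Counts over all genes moved more than the members did. Olfactory bulb gave 11 calls, and 92 with its libraries fitted alone. Hippocampus gave 318, and 212 without the filter on low values and 638 in DESeq2. Cortex gave 41, and 22 without the filter and 176 with its libraries alone. Brainstem gave 98, and 0 with its libraries alone. Among hippocampal controls 365 became 617 in DESeq2 and 234 with the control libraries alone. Depth limits the least abundant members: Trp53rkb had 0 to 13 reads and Lage3 6 to 40 in brainstem libraries. Their standard errors of 0.51 and 0.41 come from a spread shared by all 8 groups. These are the same in every region and do not measure the uncertainty of brainstem alone.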
